A study of Mus musculus with 3 samples.

Results

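The libraries described here were made from fibroblasts transfected with siRNAs against Prmt2 or Prmt7, which encode protein arginine methyltransferases, during the first days of reprogramming to pluripotency. They were chosen by the condition in their column names, siPrmt2 and siPrmt7, with 3 libraries each, so 6 of the 127 libraries analysed. The study screened siRNAs against chromatin and transcription regulators for their effect on early reprogramming. It read the outcome as bulk CEL-Seq2, a method that counts the 3′ ends of transcripts with molecular barcodes (UMIs). All transfected cells were passage-2 primary mouse embryonic fibroblasts (MEFs) of wild-type BL6 embryos, infected with lentiviruses carrying the doxycycline-inducible STEMCCA cassette (tet-OSKM, encoding Oct4, Sox2, Klf4 and Myc) and rtTA. Cells given siRNA received a pool at 40 nM with the lipid reagent RNAiMAX the day before induction. The induction medium held doxycycline with LIF, ascorbic acid, chiron and Alk5i, and RNA was harvested on day 6, so the controls carried the same factors and the same medium. The first control was a non-targeting siRNA (nt, 3 libraries) and the second was Mock transfection (5 libraries). The other 31 siRNAs of the screen (92 libraries, siPrmt5 among them) served as a wider reference. A harvest held both converting and unconverted fibroblasts, in which fewer cells of a type and less RNA per cell cannot be told apart.

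Protein arginine methyltransferases move methyl groups from S-adenosylmethionine to arginine side chains. Type I enzymes such as Prmt1, Carm1 and Prmt6 make asymmetric dimethylarginine, type II enzymes such as Prmt5 make symmetric dimethylarginine, and Prmt7 is the type III enzyme, which stops at monomethylarginine. Their substrates include histones, the Sm proteins of the spliceosome and RNA-binding proteins with glycine- and arginine-rich stretches. Prmt2 is a type I enzyme with an SH3 domain that was described as a coactivator of nuclear receptors. Prmt5 is needed in early mouse embryos and in cultures of embryonic stem cells.

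Each pool held 3 siRNAs a gene, and the antisense strands of 2 of them per gene are listed with sequence in the files used here. They are shown because these strands define the knockdowns, and because bases 2 to 8 (capitals), the seed, also direct pairing with other transcripts. Prmt2 is listed under its older symbol Hrmt1l1.
Prmt2 siRNA 1: gGAUAAGAauuuuuucucctc
Prmt2 siRNA 2: aUAUGAUUcgacuuuggcctt
Prmt7 siRNA 1: uGUCCUCUgucuuucaccctg
Prmt7 siRNA 2: uGGUUAACcuugaagaucctt
The 19-base sites of these strands were found in GENCODE vM21 transcripts on GRCm38, and each lay in exactly 1 gene. The first Prmt2 site is at chr10:76225437-76225455 in coding exon 4 of the minus-strand gene and is held by 6 of 9 transcripts. The second, at chr10:76210480-76210498 in exon 8, is held by 8 of 9. The first Prmt7 site is at chr8:106219960-106219978 in exon 4 on the plus strand and is held by 5 of 7 transcripts. The second spans a splice junction between chr8:106243848 and chr8:106244673, from exon 12, and is held by 2 of 7. The 4 seeds are all different.

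Total UMI counts ran from 29656 to 235292 per library over the 127 libraries, with a median of 73279. The siPrmt2 libraries held 78306, 86085 and 144891 counts, the siPrmt7 libraries 65446, 53648 and 110613, and the nt libraries 75100, 80136 and 143156. Levels are given as CPM, counts scaled to a common library total, with the TMM-scaled total taken over the 3013 genes that passed the filter on low counts. A gene is called where edgeR's quasi-likelihood test gave an adjusted p (Benjamini-Hochberg, over the 3013 genes) below 0.05, and the log2 fold changes are from that fit, with the replicate number as a block. Per the study's methods the siRNAs were transfected in triplicate, and whether the triplicates came from separate fibroblast preparations is not given in the sources used here, so p-values measure only the spread between these libraries. Of 14 listed fibroblast markers 11 passed the filter, and the list's summed level was 3173–3747 CPM in siPrmt2, 3228–3583 in siPrmt7 and 2410–3381 in nt. Macrophage markers summed to 0–74.78 CPM and endothelial markers to 0–85.82 CPM in the same libraries and in Mock.

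Neither knockdown could be read from its own target. Prmt2 had 0, 0 and 0 counts in the siPrmt2 libraries, against 0, 0 and 1 in nt and 1 count over the 5 Mock libraries. At the rate of the other libraries 0.702 counts were expected over the 3 siPrmt2 libraries, so that 0 counts, which allow a level of up to 12.7 CPM over the group, cannot show a reduction. Prmt2 had 34 counts in all, in 27 of the 127 libraries. Prmt7 had 0, 2 and 1 counts in the siPrmt7 libraries, 1, 1 and 2 in nt and 2, 1 and 0 in siPrmt2. Its ratio of observed to expected counts under siPrmt7 was 1.52, with a 95% counting interval of 0.313 to 4.43, and 1.01 (0.208 to 2.95) when the expectation came from nt and Mock alone. The floor and the intervals leave out all error but that of counting. A reduction of either transcript was therefore not detectable at this depth.

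Of the other family members, Prmt1, which makes most of the asymmetric dimethylarginine of a cell, and Prmt5 passed the filter. Prmt1 stood at 185.7, 91.01 and 162.1 CPM in siPrmt2, at 240.6, 128.7 and 267.7 CPM in siPrmt7 and at 199.8, 134.6 and 326.8 CPM in nt. The libraries overlapped, with log2 fold changes against nt of -0.68 (SE 0.35, edgeR adjusted p 0.673) and -0.09 (SE 0.34, adjusted p 0.971). Prmt5 differed from nt by -0.35 (SE 0.46, adjusted p 0.941) under siPrmt2 and by -0.33 (SE 0.48, adjusted p 0.896) under siPrmt7. Prmt3, Carm1, Prmt9 and Prmt6 had 512, 397, 339 and 114 counts over all libraries and did not pass the filter, and Prmt8 had 0. A second edgeR fit held the genes that passed the filter and every other gene of the gene lists with a count. In that fit Prmt3 was at log2 -0.77 (SE 0.61, adjusted p 0.869) in siPrmt2 and -0.60 (SE 0.63, adjusted p 0.84) in siPrmt7 against nt. Carm1 was at 0.21 (SE 0.70) and 0.71 (SE 0.68). No Prmt gene was called against nt in either fit.

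**Figure D1:**
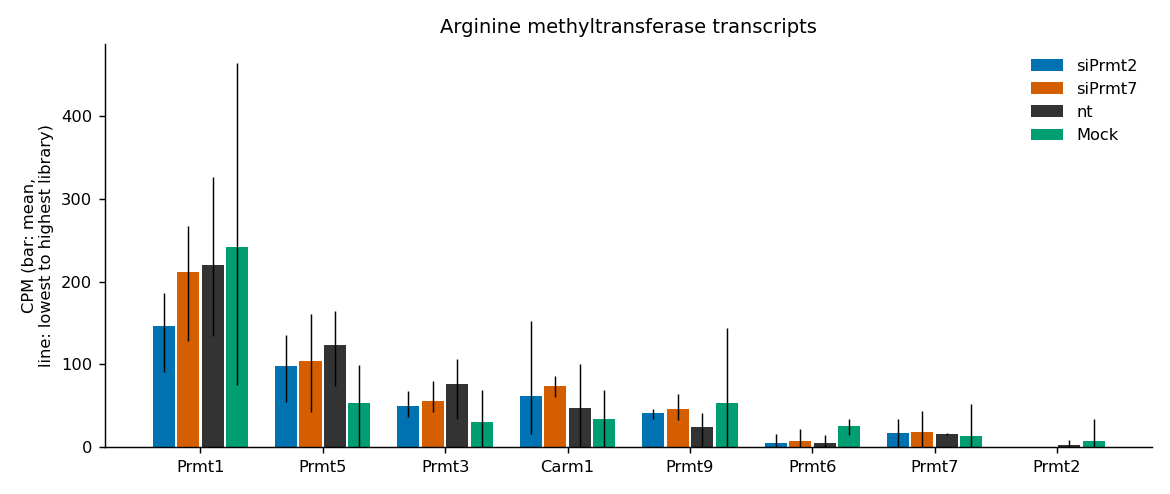
Mean level (CPM) of 8 protein arginine methyltransferase genes in the siPrmt2, siPrmt7, nt and Mock libraries, with a line from the lowest to the highest library. Prmt2 and Prmt7 lie near 0 in every group, controls included, and the lines of the 4 groups overlap for Prmt1 and Prmt5.

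The siPrmt2 libraries differed little from nt: 6 of 3013 genes were called, 4 higher and 2 lower, which is 0.199% of the genes tested (235 genes had an unadjusted p below 0.05). By the number of genes called against nt siPrmt2 ranked second from the bottom of the 33 siRNAs, after siSetdb1 with 4, in a range that ended at 821 for siWdr5. Without the replicate block 2 genes were called, and without nt library 2 or nt library 3, 3 genes.

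mt-Co3, the mitochondrial gene for a subunit of cytochrome c oxidase (chrM:8607-9390, plus strand), stood at 23040, 22340 and 21250 CPM in siPrmt2 and at 13960, 11020 and 11610 CPM in nt. It rose 1.82-fold (log2 0.87, SE 0.12, edgeR adjusted p 4.38e-08). Its level in the 5 Mock libraries ran from 14620 to 22530 CPM, so that Mock lay above nt and overlapped siPrmt2. Gm28437, a nuclear pseudogene whose sequence is near-identical to mt-Co3, rose by the same log2 0.87 (SE 0.13) and cannot be counted apart from it with certainty. mt-Rnr2, the large mitochondrial ribosomal RNA (chrM:1094-2675), stood at 158200, 129000 and 132600 CPM against 105400, 85320 and 76010 CPM in nt, a log2 rise of 0.66 (SE 0.16, adjusted p 0.019). Its Mock libraries ran from 87810 to 143000 CPM.

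Pgk1, the phosphoglycerate kinase of glycolysis (chrX:106187100-106203699), stood at 1047, 1122 and 1206 CPM in siPrmt2 and at 1565, 2273 and 2026 CPM in nt. It fell to 0.582 of the nt level (log2 -0.78, SE 0.18, edgeR adjusted p 0.016). The Mock libraries, at 951.2–1343 CPM, stood with siPrmt2 and below nt. The remaining calls were pseudogenes: Gm11956 rose by log2 0.77 (SE 0.18, adjusted p 0.016), from 882.6, 613.2 and 784.3 CPM in nt to 1418, 1031 and 1423 CPM, and Gm11407 fell to 827.1, 1107 and 666.2 CPM from 1532, 1959 and 1495 CPM (log2 -0.96, SE 0.18, adjusted p 0.000304). Gm11407 has a near-identical copy in Gm4076. Dek, a chromatin-binding protein, did not pass the test, at 320.7, 136.5 and 162.1 CPM against 466.3, 463.6 and 359.5 CPM (log2 -1.08, SE 0.29, adjusted p 0.10).

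Under siPrmt7 23 genes were called against nt, 12 higher and 11 lower or 0.763% of the genes tested, which was rank 12 from the bottom of the 33 siRNAs (321 genes had an unadjusted p below 0.05). siPrmt5 had 27 calls against the same nt libraries. The count for siPrmt7 was 5 without its own library 1, 5 without nt library 3 and 11 without its library 3. Without the replicate block 0 genes were called by edgeR for siPrmt7, with 146 at an unadjusted p below 0.05, while DESeq2 with the block called 52. The genes that rose included 3 of 73 tested ribosomal protein genes, near-identical copies of these or of Rps19, a copy of mt-Nd4 and the pseudogene Gm11956, while Rplp0 and the Rpl10 copy Rpl10-ps5 fell. Of the 23 genes 17 (73.9%) have a near-identical gene elsewhere in the annotation, beside 25.2% of all genes tested, so that the counts of each may hold reads of the other.

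Rpl10a, a protein of the large ribosomal subunit (chr17:28328471-28331033), stood at 5975, 4978 and 5204 CPM in siPrmt7 and at 3131, 3096 and 3447 CPM in nt. It rose by log2 0.74 (SE 0.15, edgeR adjusted p 0.000849), and the Mock libraries, at 3252–5880 CPM, overlapped both. Rpl35, also of the large subunit, stood at 1404, 836.8 and 1510 CPM against 616.2, 538.4 and 964 CPM, a log2 rise of 0.81 (SE 0.19, adjusted p 0.00959) with an overlap of the lowest siPrmt7 and the highest nt library. Rpl7 stood at 7519, 5879 and 6831 CPM against 5645, 4726 and 3619 CPM (log2 0.55, SE 0.14, adjusted p 0.0179). In the other direction Rplp0, the stalk protein of the large subunit, stood at 581.5, 922.6 and 685.3 CPM against 1216, 1211 and 1217 CPM and fell by log2 0.75 (SE 0.19, adjusted p 0.0142), with Mock at 626.9–1124 CPM. The other genes that rose were pseudogenes or copies: Gm45660 (log2 1.58), Gm2000 (0.92), Gm4734 (0.89), Gm11956 (0.75), Gm12174 (0.64), Gm28439 (0.62), Rpl10a-ps1 (0.61), Gm5045 (0.61) and Rpl7-ps7 (0.53).

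The largest fall was that of Mmp3, stromelysin-1, a matrix-degrading protease of fibroblasts (chr9:7445822-7455975). It stood at 40.1, 0 and 85.66 CPM in siPrmt7 and at 216.5, 239.3 and 253.3 CPM in nt, or 10 counts against 60. The libraries did not overlap and the log2 fold change was -2.15 (SE 0.51, edgeR adjusted p 0.00959). The siPrmt2 libraries, at 270.1, 333.7 and 252.1 CPM, and Mock, at 124.1–403.6 CPM, all lay above the siPrmt7 libraries. Against Mock the log2 fold change was -1.96, with an unadjusted p of 0.00027 and an adjusted p of 0.0903, and against the mean of the other siRNAs it was -1.49 with an adjusted p of 0.0645.

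Mt2, a metallothionein that binds zinc and copper (chr8:94172664-94173568), stood at 481.2, 472 and 792.3 CPM in siPrmt7 and at 699.4, 1107 and 1805 CPM in nt. It fell by log2 1.03 (SE 0.21, edgeR adjusted p 0.000849), although 1 siPrmt7 library lay above 1 nt library. Mock stood at 619.3–922.4 CPM. Spp1, osteopontin, a secreted phosphoprotein (chr5:104435118-104441050), stood at 501.3, 536.4 and 653.1 CPM against 1582, 792.7 and 923.1 CPM in nt and fell by log2 0.91 (SE 0.24, adjusted p 0.0258). The siPrmt7 libraries lay below every nt library and below the Mock range of 656.8–1099 CPM.

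Further genes that fell take part in protein folding, translation and actin turnover. Cct8, a subunit of the cytosolic chaperonin, stood at 280.7, 493.5 and 535.4 CPM against 766, 1092 and 825.1 CPM in nt (log2 -0.96, SE 0.21, edgeR adjusted p 0.00457). Bzw2, a regulator of translation, stood at 320.8, 171.6 and 246.3 CPM against 383, 658.1 and 522.8 CPM (log2 -1.07, SE 0.27, adjusted p 0.0177). Dstn, destrin, which depolymerizes actin filaments, stood at 120.3, 85.82 and 160.6 CPM against 299.8, 314.1 and 326.8 CPM (log2 -1.26, SE 0.34, adjusted p 0.0297). For these 3 genes the siPrmt7 libraries all lay below nt but overlapped Mock, which stood at 343.3–670.3 CPM for Cct8, 223.9–412 CPM for Bzw2 and 103–258 CPM for Dstn. Gtpbp4, a GTPase of large-subunit assembly, fell by log2 1.03 (SE 0.24, adjusted p 0.00959) and overlapped nt, being lower in 2 of the 3 same-numbered pairs. It falls outside the rule for named genes and is given because it completes the list. The remaining 3 were Gm26384 (log2 -1.31) and Mir703 (-1.19), whose annotated sequences resemble Eef1a1, and Rpl10-ps5 (-0.79).

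**Figure D2:**
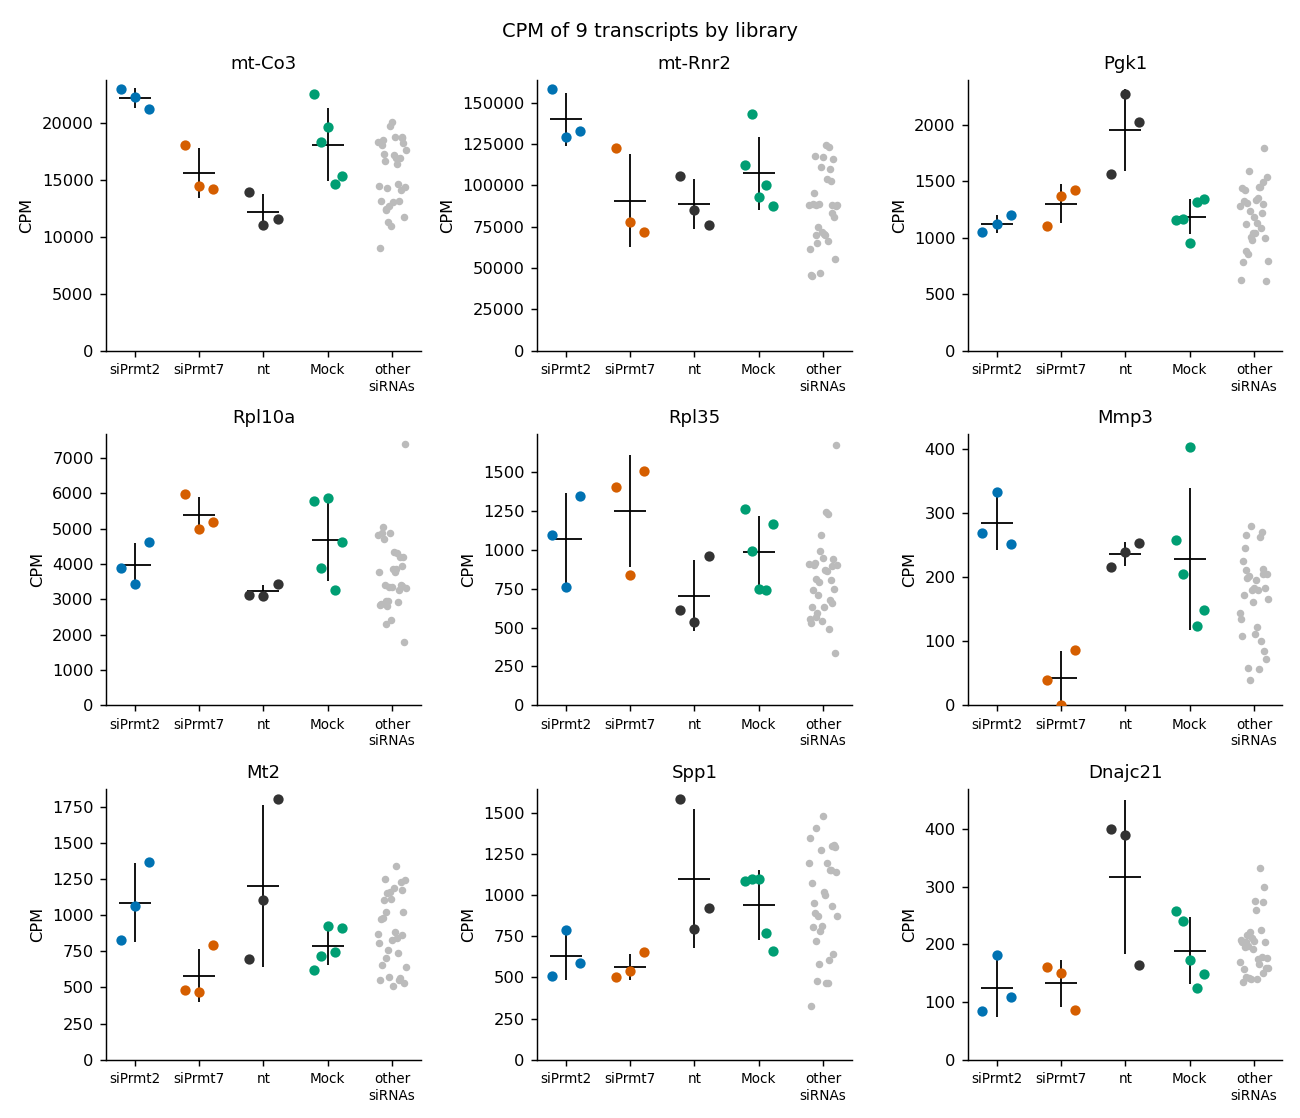
Level (CPM) of 9 genes in each siPrmt2, siPrmt7, nt and Mock library, with the mean and SD of each group and the means of the 31 other siRNAs beside them. For Mmp3 the siPrmt7 libraries lie below siPrmt2, nt and Mock, with 30 of the 31 other siRNA means above the siPrmt7 mean, and for Pgk1 the nt libraries lie above siPrmt2, siPrmt7 and Mock.

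With siPrmt2 and siPrmt7 taken as 1 group of 6 libraries, 10 genes were higher and 9 lower than in nt, 19 in all or 0.631% of those tested. Without the block 2 genes were called, and without siPrmt7 library 1, nt library 2 or nt library 3 the counts were 8, 9 and 6. Both siRNAs share the nt libraries, so a value that is extreme in nt enters both comparisons. Only Dnajc21 and Dut were called here and in neither single comparison.

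Dnajc21, a J-domain cochaperone of ribosome assembly (chr15:10446756-10470516, minus strand), stood at 84.4, 182 and 108 CPM in siPrmt2, at 160.4, 150.2 and 85.66 CPM in siPrmt7 and at 399.7, 388.9 and 163.4 CPM in nt. It fell by log2 1.21 (SE 0.31, edgeR adjusted p 0.0267), and the lowest nt library lay within the range of the siRNA libraries. The means of all 31 other siRNAs lay above those of siPrmt2 and of siPrmt7 for Dnajc21. In the 6 libraries together it was nevertheless not called against the mean of the other siRNAs (log2 -0.555, edgeR adjusted p 0.252). Nor was it called against Mock (log2 -0.468, adjusted p 0.896), which overlapped the siRNA libraries at 124.1–258 CPM. Dut, the dUTPase that keeps uracil out of DNA (chr2:125247190-125258608), stood at 455.8, 303.4 and 333.1 CPM, at 461.2, 364.7 and 299.8 CPM and at 716.1, 807.6 and 441.1 CPM in the same order (log2 -0.78, SE 0.20, adjusted p 0.0267), with the same library of nt overlapping. Dut was not called against Mock (log2 -0.16, adjusted p 0.985) or against the mean of the other siRNAs (-0.231, adjusted p 0.559) either. Spp1 fell by log2 0.85 (SE 0.19, adjusted p 0.00783) in the 6 libraries together, where siPrmt2 stood at 506.4, 788.8 and 585.2 CPM and none of the 6 reached the lowest nt library. Spp1 was also the only gene called in the 6 libraries against nt and Mock combined (0.0332% of the genes tested).

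The direct comparison does not use nt. Between siPrmt2 and siPrmt7 8 genes were called, all higher in siPrmt2, 0.266% of the genes tested (203 had an unadjusted p below 0.05). Without the block edgeR called 0, with 220 at an unadjusted p below 0.05, and DESeq2 called 21, of which 10 were higher and 11 lower in siPrmt2. Leaving out any 1 of the 6 libraries left 2 to 5 calls. They included Mmp3 (log2 2.37, SE 0.50, adjusted p 0.00615, 66 counts against 10), Mt2 (0.87, SE 0.21, adjusted p 0.0223), mt-Co3 (0.51, SE 0.12, adjusted p 0.0223), mt-Rnr2 (0.65, SE 0.16, adjusted p 0.0223), and the copies Gm28437 (0.53), Mir703 (1.39) and Gm26384 (1.14). For mt-Rnr2 the siPrmt7 libraries stood at 122800, 77670 and 71510 CPM, and for mt-Co3 at 18110, 14460 and 14250 CPM, all below the siPrmt2 values given above. mt-Atp6, a subunit of the mitochondrial ATP synthase, did not pass the test: it stood at 8204, 7327 and 8400 CPM in siPrmt2 and at 11410, 9612 and 12020 CPM in siPrmt7 (log2 -0.46, adjusted p 0.0747).

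The second control gave other genes. Against Mock 10 genes were called for siPrmt2 (2 higher and 8 lower, 0.332%) and 6 for siPrmt7 (0 higher and 6 lower, 0.199%), and none of the genes called against nt was among them. The genes lower than Mock in siPrmt2 were predicted genes such as Gm10801 (log2 -1.18) and Gm21738 (-1.08), and both of these were also lower in siPrmt7. Both are annotated as protein-coding and have a near-identical gene in Gm10800. A near-identical gene was annotated for 9 of the 10 calls of siPrmt2 and 5 of the 6 of siPrmt7, beside 25.2% of all genes tested. These calls may hold reads of one another and are not independent. Other genes called against Mock included Rps4x (log2 0.53, edgeR adjusted p 0.0188) in siPrmt2 and Dcn in siPrmt7. Dcn, decorin, a matrix proteoglycan of fibroblasts, stood at 200.5, 171.6 and 128.5 CPM in siPrmt7 and at 148.9–634.2 CPM in Mock (log2 -1.38, SE 0.33, adjusted p 0.0278).

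The 6 genes called for siPrmt2 against nt all had the same direction against Mock, 4 of them with an unadjusted p below 0.05, and the 23 of siPrmt7 all did, 6 with such a p. Their median size was log2 0.825 against nt and 0.315 against Mock for siPrmt2, and 0.89 and 0.274 for siPrmt7. The genes were selected on their change against nt and both comparisons use the same siRNA libraries, so these signs and sizes are a description and no independent check. Mock itself was called against nt, in the same direction, for 3 of the 6 and 7 of the 23 genes. Mock against nt gave 47 calls in all (1.56%), more than either siRNA. The nt libraries themselves had 25 genes called against the mean of the other siRNAs, 0.83% of those tested. For Pgk1 nt stood above the mean of the other siRNAs by log2 0.78 (adjusted p 5.62e-07), Mock stood below nt by log2 0.71 (adjusted p 0.00771) and siPrmt2 differed from the mean of the other siRNAs by -0.01. The part of nt in these calls was not tested beyond these values.

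**Figure D3:**
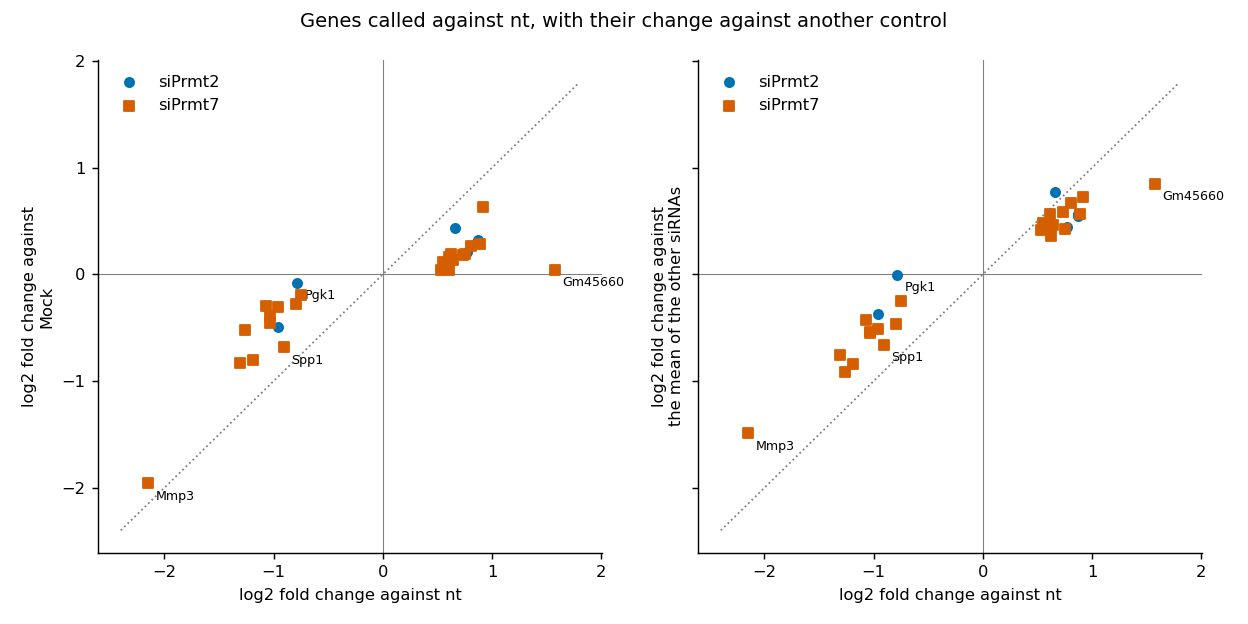
Log2 fold change against nt (horizontal axis) and against Mock or the mean of the other siRNAs (vertical axes) for the genes called against nt in the single comparisons of siPrmt2 and of siPrmt7, with a dotted line of equal values. The points keep their sign against Mock and most lie closer to 0 on the vertical axes, with median sizes against Mock of 0.315 for siPrmt2 and 0.274 for siPrmt7.

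**Figure D4:**
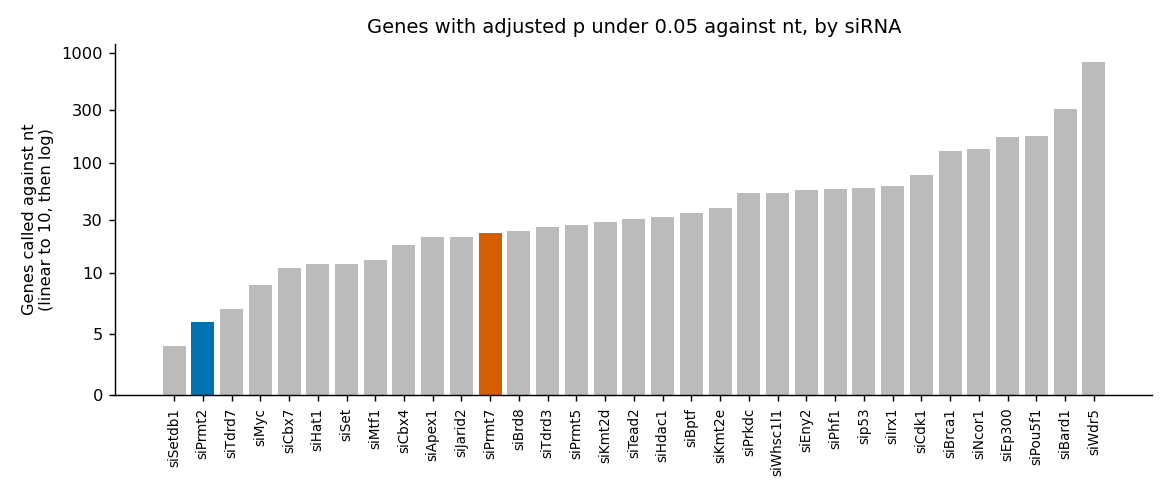
Number of genes called against nt for each of the 33 siRNAs, on an axis that is linear to 10 and logarithmic above. siPrmt2 with 6 and siPrmt7 with 23 stand in the lower part of a range that ends with siWdr5 at 821.

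Against the mean of the other siRNAs, which average many libraries, siPrmt2 had 20 genes called, all higher (0.664%), and siPrmt7 had 52, of which 45 were higher and 7 lower (1.73%). Without the block these counts were 4 and 11, and siPrmt2 had 5 without its library 3 and siPrmt7 had 12 without its library 1 and 21 without its library 3. Both siRNAs shared 5 of these genes, 25% of the siPrmt2 and 9.62% of the siPrmt7 calls: Npm1, nucleophosmin of the nucleolus, with log2 0.38 (SE 0.09, adjusted p 0.0155) in siPrmt2 and 0.35 in siPrmt7, and Gm14776, Gm17060, Gm5611 and RP24-389J11.1, of which Gm5611 is a near-identical copy of Npm1. The controls stood as high: Npm1 was at 5729, 5997 and 6977 CPM in nt and 4958–7120 CPM in Mock, against 5368, 5855 and 7896 CPM in siPrmt2 and 6356, 5900 and 6371 CPM in siPrmt7. The 2 comparisons share their reference libraries.

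In siPrmt2 mitochondrially encoded genes led this comparison. mt-Rnr2 was higher by log2 0.78 (SE 0.10, edgeR adjusted p 3.79e-09) and mt-Co3 by 0.55 (SE 0.08, adjusted p 3.24e-07), and for both genes 0 of the 31 other siRNA means exceeded that of siPrmt2. mt-Nd2 (log2 0.47, SE 0.09, adjusted p 0.000211) and mt-Nd4 (0.32), subunits of respiratory complex I, were called as well. Outside the mitochondrial genome Rpl11, a large-subunit protein known to bind Mdm2, stood at 472.6, 485.4 and 702.3 CPM and was higher by log2 0.93 (SE 0.17, adjusted p 0.000111), again with 0 of 31 means above it. Eef1e1, a component of the multi-tRNA-synthetase complex (log2 1.26, SE 0.33, adjusted p 0.0306), and Ppia, cyclophilin A (0.73), were also higher. Eef1e1 stood at 101.3, 121.3 and 243.1 CPM in siPrmt2 and at 104.7–122.5 CPM in nt. Ppia stood at 470.2–846.3 CPM in siPrmt2 and overlapped Mock, at 377.7–749.5 CPM. Neither gene was called without siPrmt2 library 3. Spp1, at log2 -0.54, had an adjusted p of 0.167 and did not pass.

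In siPrmt7 8 of 73 tested ribosomal protein genes were higher than the mean of the other siRNAs and 0 lower, beside 1.49% of all genes higher and 0.232% lower: Rps19 (log2 0.92, SE 0.19, edgeR adjusted p 0.000566), Rpl35 (0.67), Rpl10a (0.58), Rpl5 (0.49), Rpl7 (0.48), Rps14 (0.48), Rps20 (0.43) and Rplp1 (0.37). Of 50 tested nuclear-encoded respiratory chain genes 2 were higher and 0 lower: Ndufa4 (0.54) and Cycs, cytochrome c, which stood at 481.2, 536.4 and 685.3 CPM with a mean above all 31 other siRNA means (log2 0.76, SE 0.17, adjusted p 0.00334). Of 17 mitochondrially encoded genes 2 were higher and 0 lower, mt-Co2 (0.47) and mt-Atp6 (0.39). Further genes that were higher included Emc2, of the endoplasmic reticulum membrane protein complex (1.02, SE 0.28, adjusted p 0.0279), Tfrc, the transferrin receptor (0.49), Ssb, the La RNA-binding protein (0.52), Ranbp1 (0.43) and Hint1 (0.41). Gng2, a G-protein gamma subunit, had the highest fold change of them with 26 counts (log2 1.33, SE 0.39, adjusted p 0.0408). Of the genes named here, Cycs and Gng2 lay above every Mock library, and the others overlapped Mock. Mock stood at 103–297.9 CPM for Emc2, 595.8–961.4 CPM for Ndufa4 and 1514–2271 CPM for Hint1. Against Mock itself 0 genes were called higher in siPrmt7.

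The 7 genes that were lower in siPrmt7 than the mean of the other siRNAs included Mat2a and Spp1. Mat2a makes S-adenosylmethionine, the methyl donor of the Prmt enzymes, and stood at 721.8, 922.6 and 471.1 CPM, with 30 of 31 other siRNA means above it (log2 -0.55, SE 0.15, edgeR adjusted p 0.0247). Against nt it was at log2 -0.65 with an adjusted p of 0.0891, and it was not called between siPrmt2 and siPrmt7 (0.73 higher in siPrmt2, adjusted p 0.0521). Spp1 was lower by log2 0.66 (SE 0.19, adjusted p 0.0337). Tsn, translin, a nucleic acid-binding protein (log2 -0.93), the copies Mir703 (-0.84) and Gm26384 (-0.76) and the ribosomal RNA-like Gm42418 (-0.61, at 14540, 15360 and 13100 CPM) were also lower. Tdpx-ps1, a copy of Prdx2, rested on 2 counts, 0.1257 of those expected with a 95% counting interval of 0.01519 to 0.4564.

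siPrmt5 offers a comparison within the enzyme family, again without nt. Against siPrmt5 13 genes were called for siPrmt2 (10 higher and 3 lower, 0.431%) and 19 for siPrmt7 (16 higher and 3 lower, 0.631%), or 2 and 1 without the block. mt-Co3 (log2 0.76, edgeR adjusted p 5.9e-06) and Mt2 (0.97, adjusted p 0.00395) were higher in siPrmt2 than in siPrmt5, and Ppia was higher by 0.99. In siPrmt7 Rpl10a (0.71), Rpl35 (0.90), Rpl7 (0.57), Rps20 (0.63), mt-Atp6 (0.53) and the nucleolar gene Utp14a (2.07) were higher, and mt-Co1 was lower by 0.48. Spp1 was lower than in siPrmt5 in both, by log2 0.92 (adjusted p 0.0226) in siPrmt2 and by 1.04 (adjusted p 0.00419) in siPrmt7, as was Gm42418, by 0.72 and 1.42. Prmt5 itself had 4, 5 and 8 counts in the siPrmt5 libraries, 8, 7 and 6 in siPrmt2, 8, 5 and 4 in siPrmt7 and 8, 11 and 9 in nt.

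By gene list, the mitochondrially encoded genes (17 tested) had a median log2 fold change against nt of 0.20 in siPrmt2 and -0.03 in siPrmt7, beside medians over all genes of 0.02 and -0.03. In siPrmt2 2 of the 17 rose and 0 fell, mt-Co3 and mt-Rnr2, beside 0.133% of all genes higher and 0.0664% lower, and in siPrmt7 0 were called by edgeR, with 3 higher and 1 lower at an unadjusted p below 0.05. Their summed level was 358100–400000 CPM in siPrmt2, 259700–360300 in siPrmt7, 267000–328900 in nt and 283500–382600 in Mock. The siPrmt2 libraries all lay above nt but overlapped Mock, and the highest of the 31 other siRNA means, 380700 CPM, was about level with the siPrmt2 mean of 380800 CPM. Of these sums mt-Rnr2 alone made up 129000–158200 CPM in siPrmt2 and 76010–105400 CPM in nt. Not every member was higher, as mt-Atp6 stood at 7327–8400 CPM in siPrmt2 and 7358–9892 CPM in nt. The cytosolic ribosomal protein genes (73 tested) had medians of 0.08 and 0.13. Of these 73, 3 rose and 1 fell in siPrmt7, beside 0.398% of all genes higher and 0.365% lower, and 0 were called in siPrmt2, where 7 were higher and 3 lower at an unadjusted p below 0.05. Nuclear-encoded respiratory chain genes (50 tested) had medians of 0.02 and 0.13 with 0 calls against nt, and at an unadjusted p below 0.05 2 were higher and 1 lower in siPrmt2 and 3 higher in siPrmt7.

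The substrate lists of arginine methylation gave 0 calls against nt with edgeR. Sm proteins and methylation partners (8 tested of the list) had medians of -0.10 in siPrmt2 and 0.24 in siPrmt7, with 0 and 1 gene at an unadjusted p below 0.05. RNA-binding proteins with RGG motifs (24 tested) had medians of 0.03 and -0.12, with 3 and 4 such genes. These lists measure transcript levels of substrates, whose methylation was not measured.

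Genes of the fibroblast state did not give calls that held across controls. Collagens and extracellular matrix genes (26 tested) had medians of 0.23 in siPrmt2 and 0.51 in siPrmt7 against nt, and of 0.01 and 0.11 against the mean of the other siRNAs. In siPrmt7 1 of the 26, Mmp3, fell and 0 rose, with 9 higher at an unadjusted p below 0.05. Of all 3013 genes 0.365% fell and 0.398% rose in siPrmt7, with 163 higher at such a p (118 in siPrmt2). Contractile genes (17 tested), which mark myofibroblasts, had medians of 0.55 and 0.55 against nt with 0 calls, of 0.12 and 0.17 against Mock and of 0.02 and 0.01 against the other siRNAs. At an unadjusted p below 0.05 2 contractile genes were higher than nt in each siRNA. The nt libraries themselves had a contractile median of -0.58 against the other siRNAs. Sterol and fatty acid synthesis genes (10 tested) had medians of -0.38 and -0.57 with 0 calls and 1 gene lower at an unadjusted p below 0.05 in each. Glycolysis genes (9 tested) had medians of -0.24 and -0.24, and Pgk1 in siPrmt2 was the one call, beside 0.0664% of all genes lower.

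Genes of the pluripotent state were close to the limit of detection on day 6. Of 24 pluripotency genes 2 passed the filter, Apela (log2 0.02 in siPrmt2 and -0.01 in siPrmt7 against nt) and L1td1 (0.14 and -0.69), and neither was called. The 24 genes together had 17, 29 and 31 counts in siPrmt2, 8, 6 and 23 in siPrmt7 and 21, 24 and 40 in nt. Their summed level was 279.1–439.9 CPM in siPrmt2, 128.7–246.3 in siPrmt7, 326.8–358.9 in nt, 283.6–461.2 in Mock and 146–268.2 in siPrmt5. The siPrmt7 libraries lay below every nt and Mock library, and 27 of the 31 other siRNA means lay above siPrmt7 while 10 lay above siPrmt2. The untransfected day 6 libraries, at 118.7–289.2 CPM, spanned the siPrmt7 range. The 10 defining pluripotency markers had 9 counts over the siPrmt2 libraries, 7 over siPrmt7, 23 over nt, 27 over Mock and 3 over siPrmt5. Pou5f1, the gene of Oct4, had 0 counts in siPrmt2 and in siPrmt7, against 4 in nt and 5 in Mock, where 0 counts allow up to 3. It was picked after its values were seen, and other genes of the list did not follow it. In siPrmt2, siPrmt7 and nt, Klf4 had 8, 2 and 3 counts, Tdh 7, 0 and 2 and Nanog 1, 2 and 1. Of 22 epithelial genes, which come on during reprogramming, 2 passed the filter and 0 were called or had an unadjusted p below 0.05 against nt with edgeR. The list summed to 405.2–515.7 CPM in siPrmt2, 278.9–481.2 in siPrmt7, 499.6–658.1 in nt and 374.7–652.4 in Mock.

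**Figure D5:**
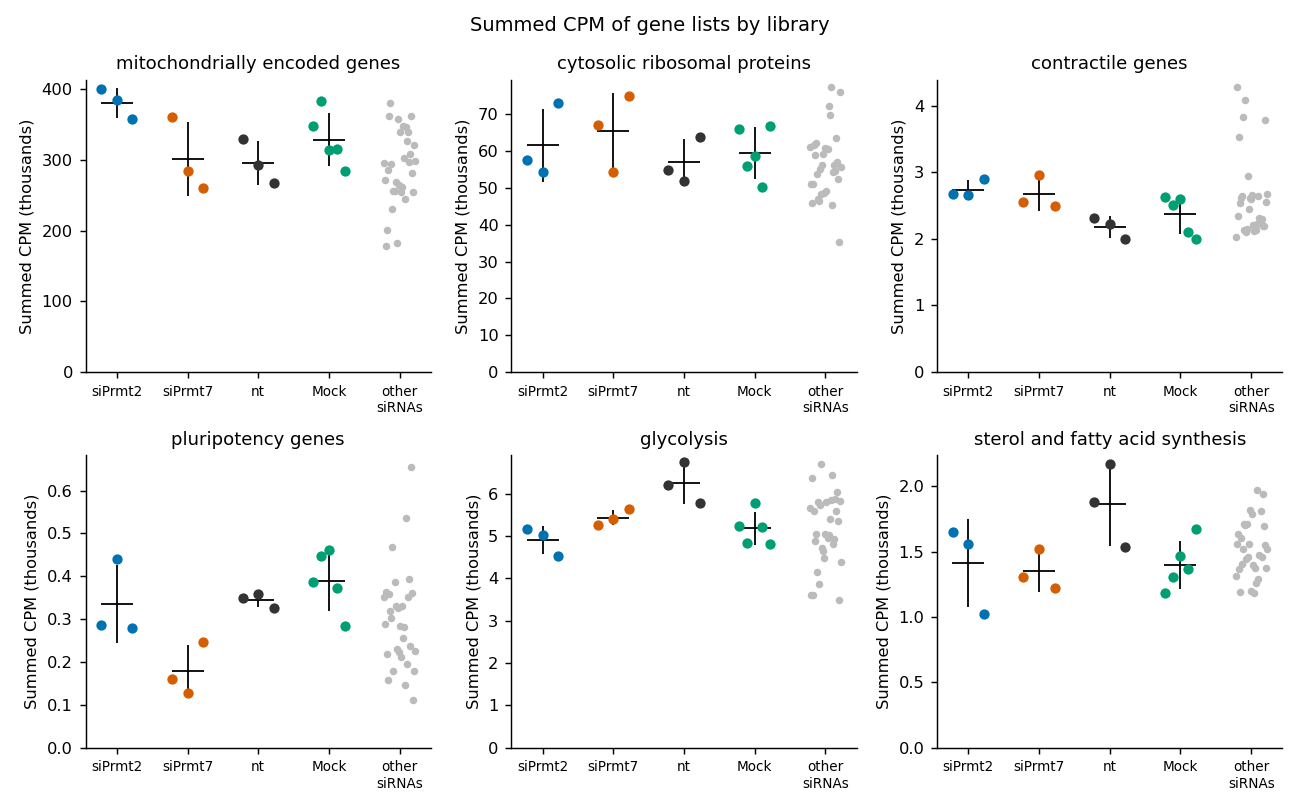
Summed level (CPM, divided by 1000 on the axis) of 6 gene lists in each siPrmt2, siPrmt7, nt and Mock library, with the mean and SD of each group. The siPrmt2 libraries lie above nt for mitochondrially encoded genes (358100–400000 against 267000–328900 CPM), and the siPrmt7 libraries lie below nt and Mock for pluripotency genes (128.7–246.3 CPM). The mitochondrial sums include mt-Rnr2, at 129000–158200 CPM in siPrmt2 and 76010–105400 CPM in nt.

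The following lists gave 0 calls against nt with edgeR in either siRNA: Wnt targets, the low-oxygen response, mesenchymal regulators and surface markers, endoplasmic reticulum chaperones, heat shock proteins, p53 targets, the ATF4 response, NF-kB targets, interferon-stimulated genes, the Igf and Tgf-beta pathway, G2/M and S phase. Dut, of the S phase list, was called only in the 6 libraries together. The ATF4 response (15 tested) had medians of 0.07 in siPrmt2 and -0.35 in siPrmt7, with 1 and 0 genes at an unadjusted p below 0.05. Heat shock genes (17 tested) had medians of -0.12 in both, with 0 and 3 such genes, and p53 targets (11 tested) had -0.08 and -0.16 with 3 and 0. Mt2 in siPrmt7 was the one call among 15 tested antioxidant and metallothionein genes, beside 0.365% of all genes lower. The medians of these 15 genes were -0.16 and -0.05. Of all 3013 genes 235 in siPrmt2 (118 higher) and 321 in siPrmt7 (163 higher) had an unadjusted p below 0.05. Mesenchymal regulators and surface markers (11 tested) had medians of 0.23 and 0.52, with 1 and 3 genes higher at such a p, and each list given above without a median had at most 2 such genes in either siRNA.

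The untransfected time course gives a direction for the genes that were called between its ends. Between day 0 and day 6, 668 genes were called (22.2% of those tested), 321 higher and 347 lower on day 6. The nt libraries themselves differed from untransfected day 6 in 802 genes (26.6%). Against nt the 321 genes had medians of log2 0.01 in siPrmt2 and -0.01 in siPrmt7, and the 347 genes had medians of 0.10 and 0.06, beside 0.02 and -0.03 over all genes. In siPrmt7 10 of the 321 were called higher and 4 lower against nt, where 0.398% and 0.365% of all genes were, and 30 of its 45 genes called higher than the mean of the other siRNAs were among the 321, which are 10.7% of the genes tested. Of the 20 such genes of siPrmt2 9 were. Of all 52 siPrmt7 calls in that comparison 31 have a near-identical gene and may hold its reads. Of the 347, siPrmt7 had 0 higher and 2 lower in each of these comparisons. In siPrmt2 1 of the 321 was higher and 1 lower against nt, and 0 of the 347 were called by edgeR.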

How the data were processed

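RNA of transfected MEFs and of an untransfected time course was sequenced by CEL-Seq2. The authors aligned the reads to mm10 (Bowtie2), counted them over GENCODE vM13 with the CEL-Seq2 pipeline and its UMI correction, and filtered out poor libraries. Their deposited values are raw, UMI-corrected counts for 50507 genes. The deposited log2 values (10568 genes), which the authors normalized and regressed on batch, served as an alternative. Conditions were read from column names, and the 127 libraries in both tables, of 129, were used. Columns of Mock share a name within a replicate. Members and gene lists (33 lists, 752 genes) were chosen with earlier results of these data known.

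Counts were fitted over all conditions with edgeR 4.0.16 (R 4.3.3): filterByExpr, TMM scaling (factors 0.8252–1.392), quasi-likelihood F-test with condition and replicate number as terms (83 residual degrees of freedom). Genes were called at an adjusted p below 0.05. The replicate number is that of the sample titles and column names, which do not say what the replicates share. Deviations of same-numbered libraries from their group means correlated at -0.0223 to 0.194, with 2 of 9 pairs over 0.1. Named genes were the called genes with a mean of at least 50 CPM that moved alike in every same-numbered pair, up to 12 in each direction by fold, filled to 4 with the genes of lowest unadjusted p that did not pass, together with the Prmt family and called members of the lists. Genes named against Mock and siPrmt5, and Gtpbp4 and Pou5f1, were chosen after their values were seen. Genes were taken as near-identical at 95% identity or more over at least 100 bases (BLAST 2.17.0, GENCODE vM21). Alternatives were RLE scaling, no filter, no block, DESeq2 1.42.0, limma 3.58.1 on the log2 values, other controls and libraries left out. Some called genes are not reported here. In counts simulated for siPrmt2 against nt over 3013 genes, 78% of genes changed by log2 2 and 25% of those changed by log2 1 were recovered, with 3 false calls. Of the changed genes at 500 CPM or more (8 and 7) 100% were recovered. The simulation gave all genes the same spread (common dispersion 0.01578) and held no replicate effect, so its rates need not hold for the real counts.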

Additional observations from a re-analysis of the deposited data

Results flagged for a closer look

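Differences between the siPrmt2 and siPrmt7 effects, tested directly with edgeR, were found for 8 genes. In log2, siPrmt2 minus siPrmt7, those reported were 2.37 for Mmp3, 1.39 for Mir703, 1.14 for Gm26384, 0.87 for Mt2, 0.65 for mt-Rnr2, 0.53 for Gm28437 and 0.51 for mt-Co3. Mir703 and Gm26384 share sequence with Eef1a1, and Gm28437 with mt-Co3, so these genes are not independent.

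Among the 5 Mock libraries, 30 named genes were examined for a single library far from the rest, and 2 had a gap beyond Dixon's 95% value of 0.71. Gm2000 stood at 621 CPM in the Mockb library of replicate number 2 (median 1330 CPM, gap over range 0.744). Gm26384 stood at 1120 CPM in the only Mock library used of replicate number 3 (median 372 CPM, 0.812). It was also highest in library 3 of nt (1160 CPM, against 449.6 and 628.1) and of siPrmt2 (855.3, against 573.9 and 561.2). The same held in siPrmt7 (514, against 140.4 and 236) and siPrmt5 (488.5, against 187.7 and 330.1). A difference between replicate numbers was not tested for this gene. Where replicates do not differ, chance alone marks about 1 in 20 such groups.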

How the results depend on the processing

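Counts of called genes are given for siPrmt2 vs nt, siPrmt7 vs nt, siPrmt2 and siPrmt7 together vs nt, siPrmt2 vs siPrmt7, siPrmt2 vs other siRNAs, siPrmt7 vs other siRNAs, siPrmt2 vs siPrmt5 and siPrmt7 vs siPrmt5, in that order (6, 23, 19, 8, 20, 52, 13 and 19 as reported). Without the replicate block they were 2, 0, 2, 0, 4, 11, 2 and 1. limma on the deposited log2 values gave 0, 0, 0, 0, 0, 2, 0 and 0, with 350, 548, 423, 456, 383, 556, 481 and 537 genes at an unadjusted p below 0.05. DESeq2 gave 22, 52, 46 and 21 for the first 4 and 28 and 40 for the last 2, and split siPrmt2 against siPrmt7 into 10 higher and 11 lower. Without the low-count filter (30778 genes) siPrmt7 against nt gave 13 and siPrmt2 against the other siRNAs 35, and RLE scaling gave 13 for siPrmt2 against siPrmt7. A fit of the compared conditions alone gave 16 for siPrmt2 and 9 for siPrmt7 against nt, and 41 for siPrmt7 against siPrmt5. With Mock as the control the first 3 were 10, 6 and 10, and with nt and Mock together siPrmt7 gave 3 and both siRNAs 1. With Mock as the control, Rpl10a (-0.034), Gm5045 (-0.074), Pgk1 (0.03) and Rplp0 (0.001) changed sign in the comparison of both together. The causes of these changes were not tested.

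Leaving out 1 library or replicate number at a time gave 2–9, 5–24, 1–22, 0–7, 4–21, 12–36, 2–18 and 7–26 calls. siPrmt2 against nt fell to 3 without nt library 2 or 3. siPrmt7 against nt fell to 5 without its own library 1 or without nt library 3, and to 11 without its library 3. Both together fell to 8 without siPrmt7 library 1, 9 without nt library 2 and 6 without nt library 3. siPrmt2 against the other siRNAs fell to 5 without its library 3, and siPrmt7 against them to 12 without its library 1 and 21 without its library 3. siPrmt2 vs siPrmt7 fell to 0 without replicate number 2 and to 2, 2 and 3 without siPrmt2 library 1, 2 or 3 and 5, 2 and 2 without siPrmt7 library 1, 2 or 3. siPrmt2 vs siPrmt5 fell to 3 without siPrmt2 library 3 or siPrmt5 library 3, and to 7 without siPrmt5 library 2. siPrmt7 vs siPrmt5 fell to 9 without siPrmt7 library 1, and to 12 and 7 without siPrmt5 library 2 or 3. In these fits a condition keeps 2 libraries. Of the 84 calls on named genes, 82 kept their call and direction under RLE scaling, 73 of 73 under DESeq2, 12 without the block, 0 under limma, 0 of 45 with Mock as control and 8 of 45 with nt and Mock together. Depth limits what could be called: most Prmt genes had too few counts to pass the filter.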

Other observations

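The seeds of the 4 listed antisense strands pair with TCTTATC and AATCATA (Prmt2) and AGAGGAC and GTTAACC (Prmt7), which were searched on the sense strand of annotated 3′UTRs of 2404 tested genes. Genes with the first had a median log2 fold change of 0.04 in siPrmt2 against nt (226 genes), beside 0.02 in genes without it, and those with the second had 0.02 (270 genes) beside 0.02. In siPrmt7 the genes with AGAGGAC had -0.12 (276 genes) beside -0.03, and those with GTTAACC had -0.05 (167 genes) beside -0.05. Of the 276 genes 1 was called lower, where 0.365% of all genes tested were. The 4 motifs are held by 7.243%, 8.784%, 11.83% and 3.995% of all 21028 annotated 3′UTRs. A match is a description of the letters and not of a site.

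Pseudogenes made up 3 of the 6 genes called for siPrmt2 against nt (50%), 9 of the 23 for siPrmt7 (39.1%) and 7 of the 19 for both together (36.8%), beside 16% of all genes tested. Genes with a near-identical copy made up 4 of 6 (66.7%), 17 of 23 (73.9%) and 14 of 19 (73.7%), beside 25.2% of all genes tested.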
